A study of Mus musculus with 4 samples.

Results

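The p53 family of transcription factors and a set of genes regulated by p53 were followed across cultured olfactory basal cells and sorted respiratory basal cells of the mouse. The members were chosen by exact gene symbol: Trp53, Trp63 and Trp73, which encode p53, p63 and p73, the p53 antagonists Mdm2 and Mdm4, and the p53-regulated genes Ccng1, Sesn1, Gdf15, Bbc3 and Pmaip1. All 10 were found among the 23281 genes of the deposited table, and all 10 passed the filter on low values, Trp73 through its level in 1 library only. RNA sequencing had been done on 3 libraries of horizontal basal cells (HBCs), reserve stem cells of the olfactory epithelium, and on 1 library of respiratory basal cells (RBCs). The HBCs came from wildtype mice and were grown in vitro to passage 3, with no sort given. The RBCs were microdissected in vivo, from the strain KRT5-CreER;Ai9-fl(stop)TdTomato, and sorted as TdTomato+. In that strain an inducible Cre expressed from a keratin 5 promoter switches on a red reporter, which descendants of a labelled cell also carry. The labels give no age, pooling of animals or inducing treatment, and do not tie the HBC libraries to separate animals. Site of origin, culture, sorting and mouse strain all differ between the groups and cannot be told apart.

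The p53 protein is held at a low level by Mdm2, a ubiquitin ligase that marks it for degradation, and by the related Mdm4, which blocks its activity. Damage and other stress free p53 from them, and it then switches on genes that stop division, repair DNA or start cell death, and also Mdm2 itself, which closes a feedback loop. The relatives p63 and p73 bind similar DNA sites. p63 maintains basal stem cells of stratified and airway epithelium and holds olfactory HBCs in their resting state, and p73 is known for its part in forming multiciliated cells. p53 is controlled largely at the level of its protein, which was not measured here. The table has 1 value per gene, so isoforms with and without the transactivation domain of p63 or p73 were not distinguished.

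Promoter stretches of 3 members described below are shown because they hold the p53 half-site, the unit of the DNA element that p53 proteins bind. The half-site searched has 3 purines, a C, 2 bases that are each A or T, a G and 3 pyrimidines, and reads the same on both strands. It was sought in RefSeq promoters of build GRCm38.p6, which run from 250 bases before to 50 bases after a gene's start. The stretches run 5′ to 3′ on the gene's strand from 250 to 101 bases before the start, with the half-site in capitals. They lie at chr11:40755387-40755536 (minus strand) for Ccng1, at chr10:117710859-117711008 (minus strand) for Mdm2 and at chr10:41887189-41887338 (plus strand) for 1 of the 2 Sesn1 promoters, and no exon of the GENCODE M21 annotation overlaps them.
Ccng1: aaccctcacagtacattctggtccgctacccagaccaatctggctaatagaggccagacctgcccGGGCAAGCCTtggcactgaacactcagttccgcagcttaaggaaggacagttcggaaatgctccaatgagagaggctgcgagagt
Mdm2: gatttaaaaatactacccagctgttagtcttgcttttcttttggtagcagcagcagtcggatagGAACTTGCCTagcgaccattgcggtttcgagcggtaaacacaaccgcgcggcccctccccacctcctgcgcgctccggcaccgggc
Sesn1: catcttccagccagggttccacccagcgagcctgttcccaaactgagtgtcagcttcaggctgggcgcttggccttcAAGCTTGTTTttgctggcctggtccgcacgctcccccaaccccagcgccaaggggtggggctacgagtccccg
The 10 bases just before the Ccng1 half-site matched the half-site pattern at 9 of 10 positions. No member promoter held 2 full half-sites within 13 bases of each other, as 24 of 32851 promoters did (0.0731%). Only 29 of 32851 promoters (0.0883%) held a half-site next to 10 bases that matched at 9 or more positions. The Mdm2 and Sesn1 half-sites had no such neighbour. Of the 14 promoters listed for 8 members, 4 held at least 1 half-site, in Ccng1, Mdm2, Sesn1 and Trp53, against 2745 of 32851 promoters in all (8.36%). Those of Mdm4, Gdf15, Bbc3 and Trp73 held none. Trp63 and Pmaip1 were not matched. A match describes letters in a window and is not evidence of binding. Sites outside the window were not sought, so a promoter without a match does not show that the gene lacks a p53 site.

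Levels are given as depth-scaled FPKM (fragments per kilobase of transcript), for which each library was divided by its own factor, and HBC means carry their SD (n = 3). Log2 changes are RBC minus HBC on log2(value + 1), which understates changes of low genes, and carry their standard error (SE) from limma. A gene was called at a limma adjusted p under 0.05 (Benjamini-Hochberg over 16440 genes) and a change of at least 2-fold on that scale. The deposited values summed to between 8377232 and 10856000 per library and the number of reads is not given, so depth in reads is unknown. With a single RBC library the spread comes from the HBC libraries alone, and an exact permutation of 3 libraries against 1 cannot go below p = 0.25. Since separate animals are not stated, the p-values cover the spread of these samples alone, and that spread may be technical. Among the 16440 genes, 34.2% passed as higher in RBCs and 12.8% as higher in HBCs, and the median log2 change was 0.45. Of these genes, 2652 averaged below 1 in HBCs and so passed the filter only through the RBC library. The other 13788 gave 23.5% higher in RBCs, 15.3% higher in HBCs and a median of 0.13. Over all genes tested, the median log2 change ranged from -0.14 under quantile normalization to 0.56 with values as deposited. Of their calls, the share higher in RBCs went from 72.8% to 53.1% with the medians set equal and 45.9% under quantile normalization.

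Markers of basal cells and of other cell types were read in both groups. In both groups the basal keratin Krt5 was among the abundant genes (18625 ± 369 in HBCs, 26488 in RBCs) and was not called. Of 12 genes that mark basal cells, 7 (58.3%) were called with their higher value in RBCs, like Trp63. Another 2 (16.7%), Krt17 and Cd44, were called with theirs in HBCs. All genes tested gave 34.2% and 12.8%, and those averaging at least 1 in HBCs, as these markers all did, 23.5% and 15.3%. The part of these markers in the Trp63 result was not tested. In the RBC library, markers of other cells were present as well: 10 of 11 tested leukocyte, 7 of 8 fibroblast, 6 of 8 endothelial, 9 of 10 olfactory neuron and all 15 tested multiciliated cell genes were called higher there, and 1 endothelial gene, Egfl7, was higher in HBCs. Many of these markers averaged below 1 in HBCs (9 leukocyte, 1 fibroblast, 7 endothelial, 4 neuron and 5 multiciliated genes), so that the filter largely fixed their calls, and the levels are the better description. Summed levels were 1424 for leukocyte genes in RBCs against 16.0 to 23.9 in HBCs. They were 7910 against 150 to 166 for fibroblast genes, of which the matrix protein gene Dcn made up 6902 in RBCs and Fbln1 101 ± 4.08 in HBCs, and 4258 against 197 to 214 for neuron genes. Endothelial genes summed to 95.2 in RBCs and 87.2 to 140.1 in HBCs, where Egfl7 made up most (109 ± 27.1). The highest single markers in RBCs were Cd74 among leukocyte genes (1001), Omp among neuron genes (1500) and Cldn5 among endothelial genes (23.7). The T cell gene Cd3e and the B cell gene Cd79a stood at 2.25 and 1.65 in RBCs. In HBCs the myeloid genes Tyrobp, Fcer1g, C1qb and Csf1r and the neuron genes Stoml3, Rtp1 and Stmn2 were listed at 0 in every library. In bulk RNA, fewer cells of a type and less RNA per cell cannot be told apart. Whether these markers came from other cells in the sort was not tested, nor was the part of such cells in the RBC levels below.

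The family members themselves were placed in different orders in the 2 groups: Trp53 led in HBCs and Trp63 in RBCs. Trp53 stood at 969, 1057 and 1007 in HBC libraries 1, 2 and 3 and at 689 in the RBC library. The RBC value lay below every HBC value, by 1.47-fold against the mean (log2 change -0.55, SE 0.06, 95% interval -0.77 to -0.33, limma adjusted p = 0.00954), so it was not called. Only with the medians set equal, of the alternatives run, was it called higher in HBCs (log2 change -1.06). Trp63 stood at 561, 540 and 538 in HBCs and at 4307 in RBCs, so the groups were far apart, while the HBC libraries had a coefficient of variation of 2.35%. Its log2 change was 2.98 (SE 0.03, limma adjusted p = 0.000127).

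The ratio of Trp63 to Trp53 within a library does not depend on the library factor. It was 0.579, 0.511 and 0.534 in the HBC libraries and 6.25 in the RBC library, 11.5-fold above their mean of 0.541 ± 0.0345. By level, Trp63 ranked 3035 to 3176 of 23281 genes in the HBC libraries and 251 in the RBC library. Trp53 ranked 1583 to 1770 in HBCs and 2255 in RBCs.

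Trp73 was at 187 in the RBC library, while every HBC library listed it at 0. No fold or p-value is given for it, because a gene at 0 throughout HBCs passes the filter only at an RBC level that is then called. Its exons overlap those of an antisense gene, Trp73os, and strand handling is not given, so reads of both cannot be told apart. Genes of multiciliated cells, in which p73 acts, moved with it: the ciliogenesis factor gene Foxj1 was at 72.3, 65.6 and 70.6 in HBCs and 723 in RBCs. Summed over the 15 listed genes they stood at 405 to 436 in HBCs and 5053 in RBCs, and the axonemal genes Dnaic1 and Tekt1 were listed at 0 in every HBC library. Which cells carried the Trp73 transcripts was not tested.

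**Figure D1:**
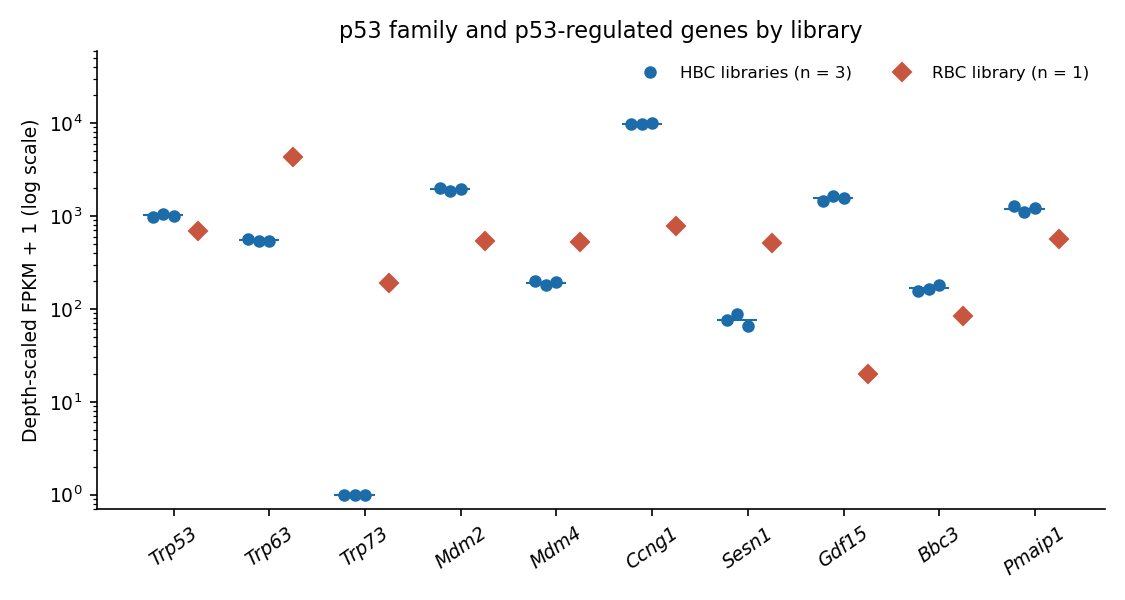
Depth-scaled FPKM + 1 (log axis) of the 10 members in each library, with 3 HBC libraries as blue circles, their mean as a short line and the RBC library as a red diamond. Ccng1 was the highest member in HBCs (9874) and Trp63 in RBCs (4307), and Trp73, listed at 0 in HBCs, is drawn at 1.

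The p53 antagonists Mdm2 and Mdm4 differed in opposite directions. Mdm2 was at 1982, 1878 and 1946 in HBCs and 532 in RBCs, 3.64-fold higher in HBCs (log2 change -1.86, SE 0.04, limma adjusted p = 0.000489). Every HBC library was above the RBC library by more than 3 times. Mdm4 was at 200, 179 and 192 in HBCs and 523 in RBCs, 2.75-fold higher in RBCs (log2 change 1.46, SE 0.08, limma adjusted p = 0.00261). With the medians set equal Mdm4 fell just under the 2-fold minimum (log2 change 0.95). Within libraries, Mdm2 exceeded Mdm4 9.93-, 10.5- and 10.2-fold in HBCs, whereas the pair was level in RBCs (ratio 1.02). The ratio of Mdm2 to Trp53 was 2.04, 1.78 and 1.93 in HBCs and 0.772 in RBCs.

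**Figure D2:**
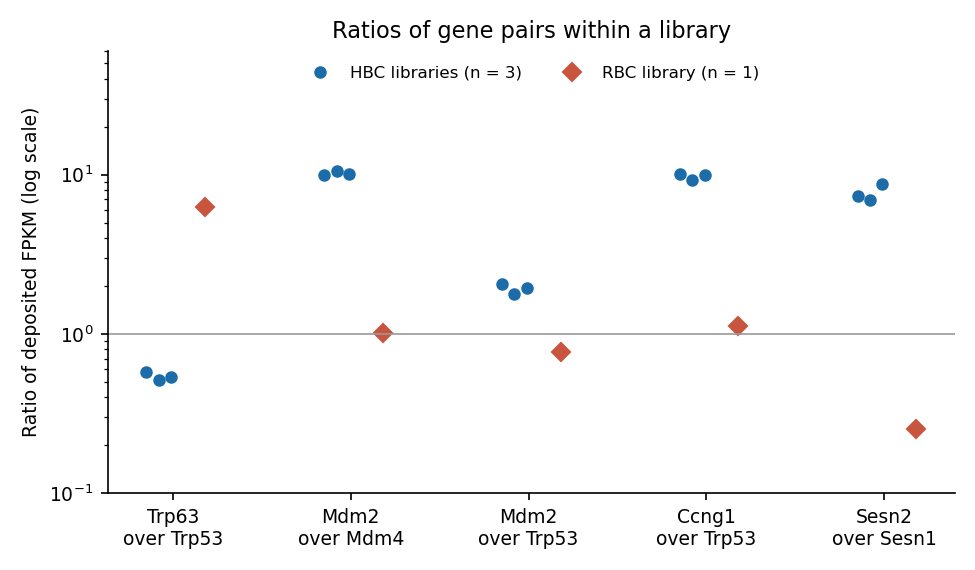
Ratios of deposited FPKM of gene pairs within each library (log axis), which no library factor affects, with HBC libraries as blue circles and the RBC library as a red diamond. Mdm2 over Mdm4 was near 10.2 in each HBC library and 1.02 in the RBC library, and the horizontal line marks equal levels.

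Among the p53-regulated members, Ccng1 and Gdf15 were prominent in the cultures. Ccng1 encodes cyclin G1, a p53 target that acts with a phosphatase on Mdm2. It was at 9791, 9792 and 10039 in HBCs and 776 in RBCs. This difference was 12.7-fold (log2 change -3.67, SE 0.03, limma adjusted p = 3.99e-05), with a coefficient of variation of 1.44% among HBC libraries. Ccng1 ranked 124 to 129 among all genes in HBCs and 1957 in RBCs, and its ratio to Trp53 was 9.26 to 10.1 in HBCs and 1.13 in RBCs. Its promoter is the one shown above whose half-site adjoins 10 bases that match at 9 positions.

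Gdf15, a secreted stress-induced cytokine of the TGF-beta superfamily, gave the widest gap of the members called higher in HBCs. It was at 1460, 1628 and 1571 in HBCs and 18.9 in RBCs, 82.0-fold higher in HBCs (log2 change -6.28, SE 0.08, limma adjusted p = 0.000159). Gdf15 ranked 1039 to 1163 in HBCs and 12896 in RBCs, the lowest of all members there. Its promoters held no half-site in the window searched, which was so for most promoters of all genes. Factors other than p53 are also known to induce Gdf15 under stress, and what set its level here was not tested.

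The cell death genes Bbc3 and Pmaip1 encode Puma and Noxa, BH3-only proteins that promote apoptosis. Bbc3 was at 154, 163 and 179 in HBCs and 82.0 in RBCs, and Pmaip1 at 1275, 1108 and 1220 against 559. For both genes the RBC value lay below every HBC value, a separation whose share among all genes was not counted. Both stood close to the 2-fold minimum, with folds of 2.02 (log2 change -1.003, SE 0.11, limma adjusted p = 0.00905) and 2.15 (log2 change -1.10, SE 0.10, limma adjusted p = 0.00654). Bbc3 was no longer called with a pseudocount of 5 (log2 change -0.97), with equal sums (-0.90) or with values as deposited (-0.89, limma adjusted p = 0.0953). Leaving out HBC library 2 (limma adjusted p = 0.0533) or 3 (log2 change -0.94) also ended its call, and over the alternatives its adjusted p ran from 0.00277 to 0.0953. Pmaip1 fell just under the 2-fold minimum with values as deposited (log2 change -0.99), with equal sums (-0.998) and under quantile normalization (-0.96).

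Sesn1 went the other way from Ccng1, Gdf15 and Mdm2. It encodes sestrin 1, a stress-induced inhibitor of mTORC1 that p53 and FoxO factors regulate. Sesn1 was at 75.0, 87.7 and 63.8 in HBCs and 507 in RBCs, 6.72-fold higher in RBCs (log2 change 2.74, SE 0.23, limma adjusted p = 0.00514). Its HBC libraries varied most of the members above 0 (coefficient of variation 15.8%), yet none came near the RBC value. The related Sesn2, also a p53 target and a target of the amino acid stress factor ATF4, was at 549, 608 and 557 in HBCs and 129 in RBCs. The ratio of Sesn2 to Sesn1 was 6.94 to 8.73 in HBCs and 0.254 in RBCs, so which of these was higher changed between the groups. Another sestrin gene, Sesn3, was at 220 ± 7.44 in HBCs and 453 in RBCs.

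In all, 5 members were called higher in HBCs (Mdm2, Ccng1, Gdf15, Bbc3 and Pmaip1), 3 higher in RBCs on a test (Trp63, Mdm4 and Sesn1), and 1, Trp73, by a call its filter fixed. Trp53 was not called. The background over all genes was 12.8% for HBCs and 34.2% for RBCs. With values as deposited or with equal sums the members called higher in HBCs numbered 3. In order of level in HBCs the members ran Ccng1, Mdm2, Gdf15, Pmaip1, Trp53, Trp63, Mdm4, Bbc3, Sesn1 and Trp73. Neighbours in this order did not overlap between libraries except Mdm4 (179 to 200) and Bbc3 (154 to 179). In RBCs the order was Trp63, Ccng1, Trp53, Pmaip1, Mdm2, Mdm4, Sesn1, Trp73, Bbc3 and Gdf15, with no replicate to judge neighbours such as Pmaip1 (559), Mdm2 (532), Mdm4 (523) and Sesn1 (507).

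**Figure D3:**
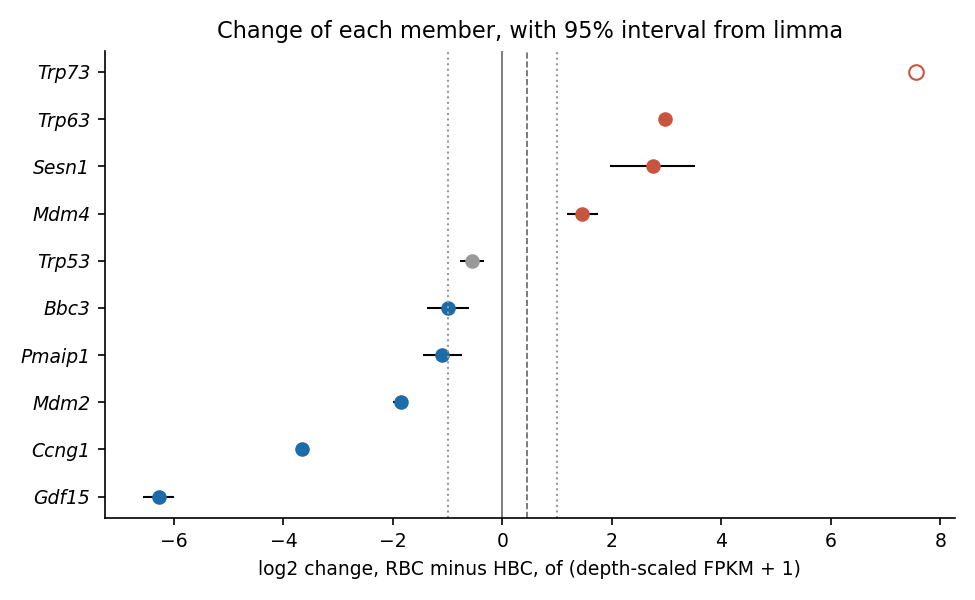
Log2 change of each member (RBC minus HBC, on depth-scaled FPKM + 1) with limma's 95% interval, in blue where called higher in HBCs, red where called higher in RBCs and grey where not called. Dotted lines mark the 2-fold minimum, the dashed line the median of all genes tested (0.45), and the open circle Trp73, which has no spread in HBCs.

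Other genes that p53 is known to induce were read from lists chosen by role. Of 18 genes of cell cycle arrest and DNA repair, 7 passed as higher in HBCs and 2 as higher in RBCs, leaving 9 without a call (38.9% and 11.1%, against 12.8% and 34.2% of all genes tested, and median log2 change -0.66). Cdkn1a, which encodes the cyclin-dependent kinase inhibitor p21 and is the best known p53 target, was at 5757, 5957 and 6132 in HBCs and 876 in RBCs. It was 6.79-fold higher in HBCs (log2 change -2.76, SE 0.05, limma adjusted p = 0.000302). Zmat3, an RNA-binding p53 target, was 4.52-fold higher in HBCs (432 ± 10.3 against 95.5) and Gadd45a, a growth arrest gene, 2.85-fold (1253 ± 1.31 against 439). Ckap2 was 2.50-fold higher (283 ± 25.9 against 113). Btg2, an antiproliferative gene, went the other way and was 9.35-fold higher in RBCs (10004.5 against 1070 ± 13.9). Rprm was at 6.70 ± 2.01 in HBCs and 39.1 in RBCs. Rprm was no longer called under quantile normalization (limma adjusted p = 0.349), nor when HBC library 1 (0.0597) or 3 (0.0808) was left out.

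Of 4 genes of cell division, 3 were called higher in HBCs, against 12.8% of all genes tested. These 4 were named after their values were seen, so the count is only a description. The mitotic cyclin gene Ccnb1 was at 380 ± 26.2 against 57.4, its kinase gene Cdk1 at 559 ± 20.7 against 95.8 and the topoisomerase gene Top2a at 608 ± 32.4 against 137. The proliferation marker Mki67 was at 192 ± 9.37 against 101 and was not called (log2 change -0.93). Ckap2, which encodes a spindle protein, is itself a gene of dividing cells. The part of dividing cells in the target genes' levels was not tested.

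Of 17 p53 targets tied to cell death, 8 passed as higher in HBCs and 2 as higher in RBCs, leaving 7 without a call (47.1% and 11.8%, against 12.8% and 34.2% of all genes tested, and median log2 change -0.70). The death receptor gene Eda2r was 36.8-fold higher in HBCs (588, 593 and 616 against 16.3, log2 change -5.12, SE 0.04, limma adjusted p = 4.55e-05). Another death receptor gene, Tnfrsf10b, was 8.97-fold higher (482 ± 13.9 against 53.8). Trp53inp1, a stress-induced partner of p53, was 5.64-fold higher (2369 ± 133 against 420), and the nuclease gene Aen 4.09-fold (960 ± 32.6 against 235). Trp53i11 was higher in RBCs (748 against 202 ± 8.09), as was Zfp385a (239 against 118 ± 8.89). Zfp385a was called only narrowly (log2 change 1.01) and lost that call with the medians set equal (log2 change 0.50), under quantile normalization (0.70), with a pseudocount of 5 (0.99) and with no library factor (limma adjusted p = 0.0599). Leaving out HBC library 1 (log2 change 0.96) or 3 (limma adjusted p = 0.0516) also ended it.

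Targets in metabolism and redox control were called in both directions, and in RBCs about as often as all genes. None averaged below 1 in HBCs, and genes tested with an HBC mean of at least 1 gave lower shares. Those were 15.3% higher in HBCs and 23.5% higher in RBCs. Of 15 such genes, 4 passed as higher in HBCs and 5 as higher in RBCs, leaving 6 without a call (26.7% and 33.3%, against 12.8% and 34.2% of all genes tested, and median log2 change -0.13), and with the medians set equal these numbers were 7 higher in HBCs and 2 higher in RBCs. The mitochondrial glutaminase gene Gls2 averaged 20.9 ± 2.55 in HBCs and 1.23 in RBCs. Sesn2 was 4.44-fold higher in HBCs and 9630033F20Rik, an older symbol of the fructose bisphosphatase gene Tigar, 2.13-fold (205 ± 8.38 against 96.2). Sco2, an assembly factor of cytochrome oxidase, was at 177, 251 and 284 against 75.8. Sco2 was no longer called with values as deposited (limma adjusted p = 0.112), nor when HBC library 2 (0.127) or 3 (0.0916) was left out. Higher in RBCs were Lpin1, a phosphatidate phosphatase (193 against 45.4 ± 1.60), the autophagy gene Dram1 (599 against 201 ± 9.50), the pantothenate kinase gene Pank1 (194 against 90.5 ± 0.477) and Aldh4a1 (757 against 355 ± 9.35). With the medians set equal, Pank1 (log2 change 0.59) and Aldh4a1 (0.58) were no longer called, and Pank1 also not under quantile normalization (0.68). Tigar was no longer called with equal sums (log2 change -0.98) or with values as deposited (-0.97).

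Taking the 3 target lists as 50 genes, 19 (38%) passed as higher in HBCs and 9 (18%) as higher in RBCs, where all genes tested gave 12.8% and 34.2%. Their median log2 change was -0.64, where all genes tested had 0.45. None of these 50 genes averaged below 1 in HBCs. Genes of that kind raise the RBC share and the median of all genes tested, and without them 15.3% were called higher in HBCs and 23.5% in RBCs, around a median of 0.13. The targets were chosen with earlier results of these data known, and these shares are a description. They hold for the main scaling, and the 50 genes were not counted together under the others. Of the calls over all genes, 72.8% were higher in RBCs in the main fit and 45.9% under quantile normalization.

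Most listed regulators of p53 were not called. Of 25 genes, 3 passed as higher in HBCs and 4 as higher in RBCs, leaving 18 without a call (median log2 change 0.28). The shares were 12% and 16%, against 12.8% and 34.2% of all genes tested, so the first lay near the background. Cdkn2a stood apart: it was at 1550, 1607 and 1591 in HBCs and 2.56 in RBCs, too low a value for a fold to be given (log2 change -8.80, SE 0.03, limma adjusted p = 5.38e-06). The locus gives rise to 2 unrelated proteins, the Mdm2 inhibitor p19Arf and the kinase inhibitor p16Ink4a, and the single value does not separate them. The checkpoint kinase gene Chek1, also a gene of dividing cells, was 4.28-fold higher in HBCs (104 ± 8.47 against 24.3). Higher in RBCs were the p53 coactivator genes Ep300 (405 against 196 ± 8.59) and Crebbp (186 against 62.2 ± 6.43), the deacetylase gene Sirt1 (233 against 98.4 ± 7.88) and Ppp1r13b (339 against 66.7 ± 7.72), which encodes the p53 cofactor ASPP1. With the medians set equal or under quantile normalization, Ep300 (log2 change 0.53 and 0.99) and Sirt1 (0.73 and 0.89) fell under the 2-fold minimum.

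Epithelial genes known as p63 targets were read beside Trp63. Of 27 such genes, 13 (48.1%) passed as higher in RBCs and 3 (11.1%) as higher in HBCs, leaving 11 without a call (median log2 change 0.82). All genes tested gave 34.2% and 12.8%, so the share higher in HBCs lay near the background, and 1 of the 13, Frem2, passed the filter only through the RBC library. The desmosomal cadherin gene Dsc3 was 63.7-fold higher in RBCs (1261 against 19.8 ± 3.15) and the growth factor receptor gene Fgfr2 45.9-fold (1530 against 33.3 ± 3.94). Fgfr3 was at 3.09, 2.32 and 6.66 in HBCs and 2079 in RBCs. Frem2, a basement membrane gene, averaged 0.0761 in HBCs and stood at 133 in RBCs. The 3 genes higher in HBCs were Igfbp3 (6.56-fold, 19138 ± 377 against 2917), the integrin gene Itga3 (6.30-fold, 6518 ± 258 against 1035) and the differentiation factor gene Zfp750 (2.12-fold, 410 ± 12.4 against 194). Zfp750 lost its call with values as deposited (log2 change -0.97, limma adjusted p = 0.0509) and with equal sums (-0.98). With the medians set equal, 12 were higher in RBCs and 7 in HBCs. Perp, a desmosomal gene listed as a target of both p53 and p63, was at 11141 in HBCs on average and 7869 in RBCs, a difference under 2-fold. The fibroblast, leukocyte and neuron markers given above were higher in the same library as these 13 genes, and their part was not tested.

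**Figure D4:**
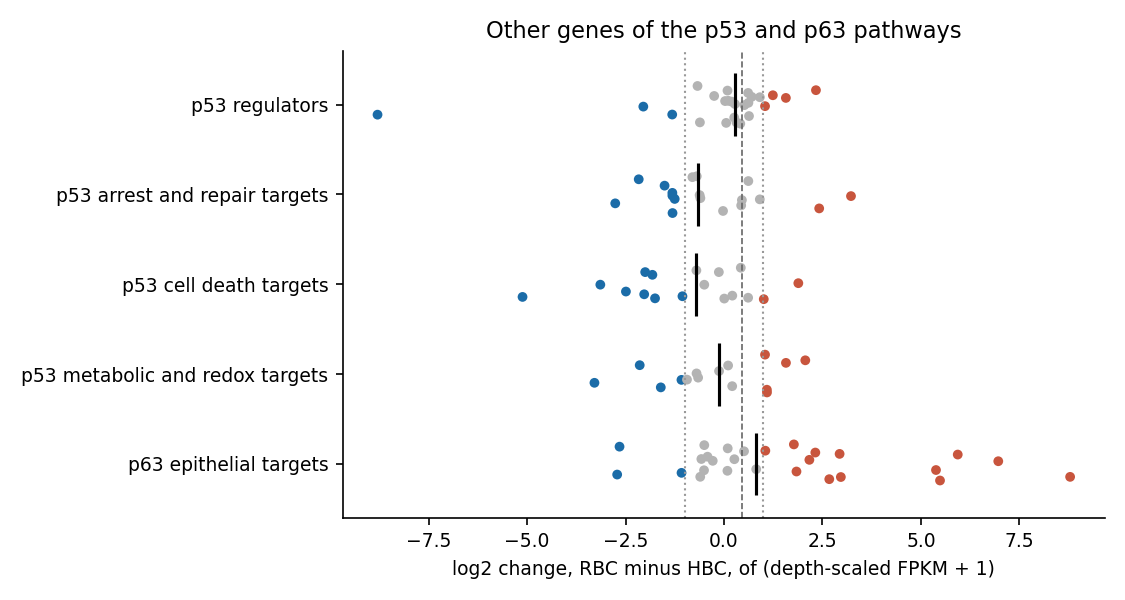
Log2 change (RBC minus HBC, on depth-scaled FPKM + 1) of each gene in the 5 lists, in blue where called higher in HBCs, red where called higher in RBCs and grey where not called. Black bars are list medians (0.28, -0.66, -0.70, -0.13 and 0.82 from top to bottom), the dashed line is the median of all genes tested (0.45), and the lone blue point of the regulators at -8.80 is Cdkn2a.

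Genes whose pattern over the 4 libraries was most like that of Trp63 were sought among 9403 genes for which the HBC mean and the RBC value averaged at least 100. Likeness was the root mean square difference of log2 values, each gene centred on its own mean. The nearest were Mob3b (0.0147, 35 ± 1.35 in HBCs and 283 in RBCs), the basal cell collagen gene Col17a1 (0.0271, 420 ± 2.55 and 3289), which is on the p63 list, and S100a1 (0.0323, 711 ± 25.3 and 5556). For Mdm2 they were Id4 (0.0127), Sdcbp2 (0.0135) and Tomm70a (0.0150). With 4 libraries such likeness mostly says that the genes differ by a similar factor between the groups.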

How the data were processed

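RNA was sequenced from 3 HBC and 1 RBC libraries. Tools named in the submitters' processing notes are Cufflinks 2.2.1, Cuffnorm and STAR, with mouse build mm9. The authors deposited 1 FPKM value per gene and library, per the labels. Annotation, strand handling and filters were not given in the sources used here. In low genes (all values below 4), the commonest ratio between any pair of libraries lay between 0.980 and 0.995 although the column sums differ, so depth appeared not to have been divided out. Values were divided by a factor per library, its median ratio to the gene-wise geometric mean in 11134 genes at 10 or more throughout (0.843, 1.05, 1.07 and 1.06). A gene entered the test when its HBC mean and RBC value averaged 1 or more. Log2(value + 1) was fitted over the whole table with limma 3.58.1 in R 4.3.3 (eBayes with trend, 2 residual degrees of freedom), two-sided. The procedure was also run on simulated data in which every library varied alike, so that run does not check the spread of the RBC library. Promoters came from RefSeq (GRCm38.p6), matched by symbol.

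The members and lists were chosen with earlier results of these data known. Named were all members and, per list, up to 4 called genes in each direction by size of change, with the markers highest in either group. The values of 1 called regulator are not reported here. Krt17, Cd44, Egfl7, Cd3e, Cd79a, Foxj1, Perp, Sesn3, the division genes and markers listed at 0 were named after their values were seen. Of the multiciliated list, Mcidas, Dnah5 and Dnah9 were not matched by symbol. The 5 other settings of scaling and fit, 2 pseudocounts, 2 filters and leaving out each HBC library were tried as alternatives.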

Additional observations from a re-analysis of the deposited data

How the results depend on the processing

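Of the 10 members, none changed direction under the 12 alternatives (4 scalings, 2 pseudocounts, 2 filters, a fit without trend, and each HBC library left out). Trp73, at 0 in every HBC library, could not change direction and its call was fixed, so the alternatives do not test it. Trp63, Mdm2, Ccng1, Sesn1 and Gdf15 kept their side of the threshold in all 12. Their log2 changes ranged from 2.47 to 3.23 for Trp63, -2.37 to -1.70 for Mdm2 and -4.18 to -3.47 for Ccng1. For Sesn1 the range was 2.24 to 2.86 and for Gdf15 -7.56 to -6.02. Bbc3 lost its call in 5, Pmaip1 in 3 and Mdm4 in 1, and Trp53 gained one in 1. Members called higher in HBCs numbered 3 both with equal sums and with values as deposited. With the medians set equal and under quantile normalization, regulators called higher in RBCs numbered 2 and 2, and those higher in HBCs 5 and 5. Arrest and repair targets higher in RBCs numbered 1 under quantile normalization and 1 to 2 with 1 HBC library left out. Cell death targets higher in RBCs numbered 1 with values as deposited, with the medians set equal, under quantile normalization and with a pseudocount of 5, and 1 to 2 with 1 HBC library left out. Metabolic targets higher in RBCs numbered 2 with the medians set equal. Those higher in HBCs numbered 2 with values as deposited and 7 with the medians set equal. The p63 targets higher in HBCs numbered 7 with the medians set equal. Over all genes, 3042 were higher in RBCs under quantile normalization, and 3799 (medians equal) and 3589 (quantile) higher in HBCs. The median log2 change of all genes tested was 0.45 in the main fit, -0.08 with the medians set equal and -0.135 under quantile normalization. The list counts given above for these settings moved in the same direction as all genes. The cause of these changes was not tested. Of the 34 other named genes, 9 lost their call under at least 1 alternative and none reversed. No paired analysis was possible, because the groups came from different mouse strains and the labels link no HBC library to the RBC library. The lone RBC library has no replicate, so its own variation is unmeasured.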
